A study of Oryctolagus cuniculus with 35 samples.

Results

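The lungs of 14 rabbits given the cephalosporin antibiotic ceftaroline were compared with the lungs of 14 rabbits that did not receive it, out of 35 rabbits in the study, to ask which lung genes differed with the antibiotic when lungs with and without mesenchymal stromal cells (MSC) were pooled. All 28 were New Zealand rabbits with pneumococcal pneumonia under adverse mechanical ventilation, so the control lungs were infected and ventilated too. Therapy came 4 h after the bacteria. The ceftaroline group received 20 mg/kg into the muscle, and the ceftaroline+MSC group received that dose plus 3000000 human umbilical cord MSC per kg into the vein. The MSC group received the same cells alone, and the NaCl group received saline. Each group held 7 rabbits with 1 library each. Lung pieces were taken at 24 h, or at death where it came sooner. Which rabbits died sooner is not given in the sources used here, and the cells were human cells in a rabbit host. The 7 healthy rabbits were not used here.

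Ceftaroline blocks the enzymes that cross-link the bacterial cell wall, so that pneumococci are killed. In an infected and mechanically stretched lung, neutrophils enter the air spaces, and macrophages and epithelium release cytokines such as IL-6 and IL-8. Stretched cells switch on genes that the transcription regulators YAP and SRF control. During repair the tissue turns to cell division and to a quieter immune state.

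Libraries with ceftaroline held 11137017 to 33209729 recovered reads (median 13189000), against 7611988 to 14948358 (median 10185334) without it. Titles of 5 of the 14 libraries without ceftaroline (NaCl replicates 5, 6 and 7 and MSC replicates 6 and 7) end in the letters PG, and no ceftaroline library has this ending. What the ending stands for is not given. On the second principal component, which held 17.4% of the variance, 4 of those 5 libraries stood apart from all others. The tissue label was checked with known markers. The surfactant gene SFTPB lay at 495 to 11252 CPM (read counts scaled to a common library total), and the endothelial genes PECAM1 and CDH5 at 216 to 876 and 228 to 973 CPM. The airway genes SCGB1A1 and FOXJ1 were listed at 0 in all 28 libraries. In all, 10311 of the 23669 genes had no read in any of the 28 libraries, among them CANX and LDHA, genes that nearly every cell uses, so a gene listed at 0 was not read as absent.

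**Figure D1:**
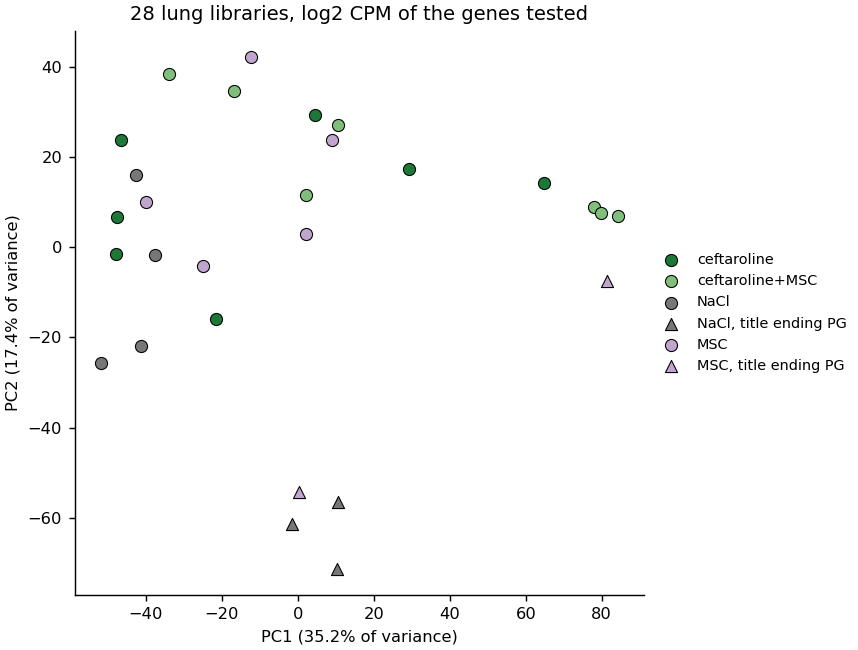
Principal components of 28 lung libraries (log2 CPM of 9938 genes). The horizontal axis is the first component (35.2% of the variance) and the vertical axis the second (17.4%), with 1 point per rabbit, colour for the group and triangles for titles ending in PG. The groups overlap on both axes, and 4 of the 5 triangles lie below every circle.

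With ceftaroline, several genes that stretch and injury switch on fell, among them ANKRD1 (by 2.80 on the log2 scale), HBEGF (by 1.68) and CCN1 (by 1.56). TM4SF1 fell by 1.58 on the log2 scale, and ANXA1, a gene of resolving inflammation, fell by 0.79. Some genes of DNA replication rose, among them MCM2 (0.84), MCM3 (0.68) and RRM1 (0.43), and the ribosome assembly genes NLE1 and NMD3 fell by 0.63 and 0.49. Each of these genes passed the test over 14 against 14 rabbits, with limma adjusted p-values between 0.041 and 0.0489. IL6, CXCL8 and the neutrophil markers did not pass it. The calls were fragile: in 13 of the 28 fits that left out 1 library, no gene passed. Among libraries with no PG ending, 11 genes passed. The stretch, DNA replication and ribosome lists used below were drawn up after the calls had been seen.

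Across 9938 genes tested, limma with MSC in the model called 167 genes at a Benjamini-Hochberg adjusted p under 0.05, which is 1.68% of the genes. Of these, 90 rose with ceftaroline (0.906%) and 77 fell (0.775%). All 167 adjusted p-values lay close to the threshold, between 0.0410 and 0.0496. At an unadjusted p under 0.05 there were 2414 genes (24.3%), 1177 higher (11.8%) and 1237 lower (12.4%). Changes were mostly small: 23 of the 167 reached a log2 fold change of 1 in size. No called gene separated the 14 ceftaroline lungs from the 14 without it completely. The edgeR quasi-likelihood test called 265 genes, 156 of them among the 167.

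**Figure D2:**
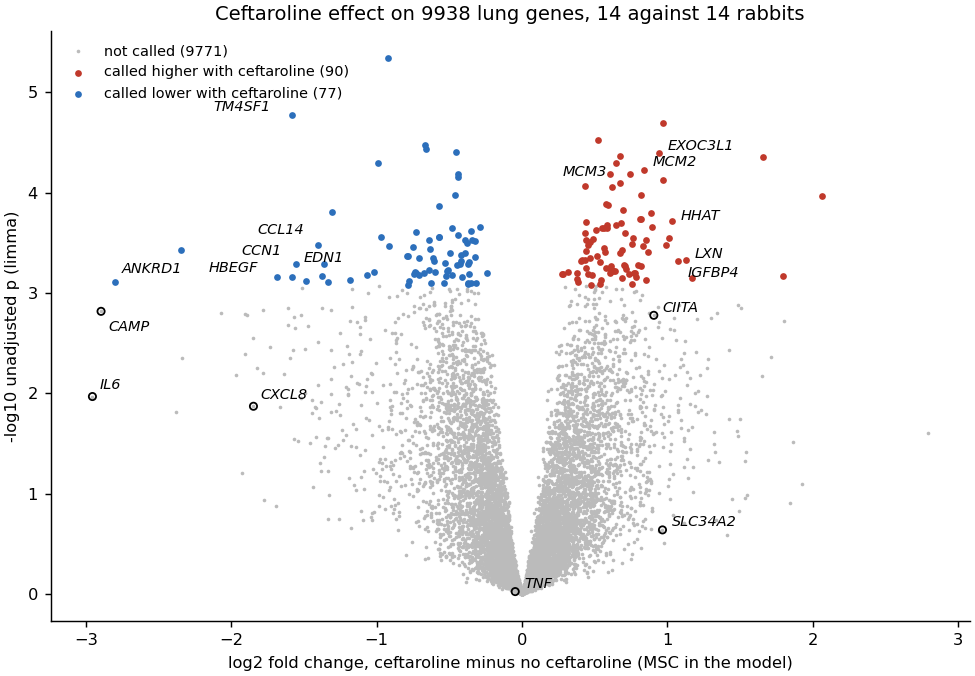
Ceftaroline effect on 9938 genes over both MSC arms. The horizontal axis is the log2 fold change of 14 ceftaroline lungs over 14 lungs without it, and the vertical axis is -log10 of the unadjusted limma p. Red points are the 90 genes called higher and blue points the 77 called lower; open circles mark named genes that were not called.

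The calls depended on single libraries and on the title ending. Left out one at a time, the 28 libraries gave 0 to 786 calls, and 26 of the 28 moved the count by over 1.5 times. No gene was called by limma without NaCl replicate 2, 5, 6 or 7, MSC replicate 1, 5 or 7, ceftaroline replicate 3, 5 or 7, or ceftaroline+MSC replicate 3, 5 or 6, while 1943 to 2300 genes kept an unadjusted p under 0.05 in those fits. Without NaCl replicate 1, 672 genes were called, and without NaCl replicate 4, 2 genes. Without MSC replicate 2, 4 or 6, the counts were 467, 308 and 786. Without ceftaroline replicate 1, 2, 4 or 6, they were 252, 371, 3 and 444. Without ceftaroline+MSC replicate 1, 2, 4 or 7, they were 89, 253, 271 and 29. Among the 23 libraries with no PG ending, 11 genes were called, 4 of them among the 167, and with the ending as a covariate 3 genes were called. None of the 32 called genes that the naming rule selects was called at either of these settings. Reads thinned to the smallest library gave 142 calls. In bulk lung, fewer cells of a type and less RNA per cell cannot be told apart.

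Several of the largest falls were in genes that stretch, serum and injury switch on. Counting only called genes that have a symbol and average 5 CPM or more, the largest was that of ANKRD1, a muscle ankyrin-repeat protein and a YAP target. It reached that average only through the lungs without ceftaroline (mean 94.3 CPM, against 3.90 CPM with ceftaroline), among them MSC replicate 7 at 948 CPM. ANKRD1 ranged over 0.444 to 13.6 CPM (median 3.01) in ceftaroline lungs and 0.993 to 9.41 CPM (median 1.97) in ceftaroline+MSC lungs, against 5.30 to 126 CPM (median 18.3) in NaCl lungs and 0.613 to 948 CPM (median 13.6) in MSC lungs. It fell by 2.80 on the log2 scale (SE 0.74; limma, Benjamini-Hochberg adjusted p = 0.0489), and all 14 ceftaroline lungs lay below the median of the lungs without it, while the groups overlapped. The 5 lungs with the PG ending held a median of 66.9 CPM and the 9 other lungs without ceftaroline 12.8 CPM, and among libraries with no ending the log2 difference was -1.53.

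TM4SF1, a membrane protein of endothelial and other cells, fell too. For TM4SF1, the ceftaroline lungs held 217 to 626 CPM (median 309) and the ceftaroline+MSC lungs 154 to 394 CPM (median 255), against 449 to 2698 CPM (median 1742) in NaCl lungs and 281 to 2339 CPM (median 501) in MSC lungs. It fell by 1.58 on the log2 scale (SE 0.30; limma, Benjamini-Hochberg adjusted p = 0.041), with 14 of 14 ceftaroline lungs below the other median. Its log2 difference was -1.98 without MSC and -1.18 with MSC, and it was also called without MSC (limma adjusted p = 0.0359). CCN1 stood at 74 to 1297 CPM (median 335) with ceftaroline and at 109.7 to 434 CPM (median 152) with ceftaroline+MSC, against 331 to 1556 CPM (median 1268) with NaCl and 126 to 1988 CPM (median 535) with MSC. This secreted matrix protein, another YAP target, fell by 1.56 on the log2 scale (SE 0.40; limma, Benjamini-Hochberg adjusted p = 0.0475), with 13 of 14 ceftaroline lungs below the other median. For TM4SF1 all 7 ceftaroline+MSC lungs lay below all 7 NaCl lungs, groups that differ in MSC as well as in ceftaroline. HBEGF, ANXA1, EXOC3L1 and CAMP, among others, were likewise separated between these groups. The share over all genes was not counted, so whether such a separation is unusual is not known. The other pairs of groups for TM4SF1, and all pairs for CCN1, overlapped. Without the PG libraries the log2 differences were -1.10 and -1.10.

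HBEGF is a ligand of the EGF receptor released from injured epithelium, and EDN1 encodes endothelin-1, a vasoconstrictor peptide. HBEGF ranged over 24.2 to 423 CPM (median 51) in ceftaroline lungs and 16.6 to 61.3 CPM (median 32) in ceftaroline+MSC lungs, against 74.8 to 578 CPM (median 433) in NaCl lungs and 19.7 to 333 CPM (median 91.4) in MSC lungs. HBEGF fell by 1.68 on the log2 scale (SE 0.44; limma, Benjamini-Hochberg adjusted p = 0.0476), and only ceftaroline replicate 6 lay above the median of the lungs without it. For EDN1, the ceftaroline lungs held 14.9 to 104 CPM (median 82.8) and the ceftaroline+MSC lungs 9.20 to 102 CPM (median 30.5), against 39 to 342 CPM (median 116) in NaCl lungs and 42.2 to 200.4 CPM (median 86.7) in MSC lungs. EDN1 fell by 1.38 on the log2 scale (SE 0.36; limma, Benjamini-Hochberg adjusted p = 0.0476), with all 14 ceftaroline lungs below the other median and the ranges overlapping. Among libraries with no PG ending the log2 differences were -1.50 for HBEGF and -1.03 for EDN1. EDN1 had a median of 247 CPM in the lungs with the PG ending and 89.1 CPM in the other lungs without ceftaroline. For HBEGF these medians were 418 and 132 CPM.

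A list of 41 YAP and SRF target genes was drawn up after these falls had been seen, and holds them, so its share of calls is a description only. Of its 28 tested members, 26 had a lower value with ceftaroline, 5 were called lower and 0 higher, against 0.775% of all genes called lower, and the median log2 difference was -0.53, against 0.00 over all genes tested. At an unadjusted p under 0.05, 16 members were lower and 0 higher, against 12.4% of all genes lower. With 1 library left out, 0 (for one, without NaCl replicate 2) to 11 members (without NaCl replicate 1) were called lower. The median was -0.72 without MSC and -0.49 with MSC. Among libraries with no PG ending it was -0.35, with 9 of 28 members higher and 0 called.

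**Figure D3:**
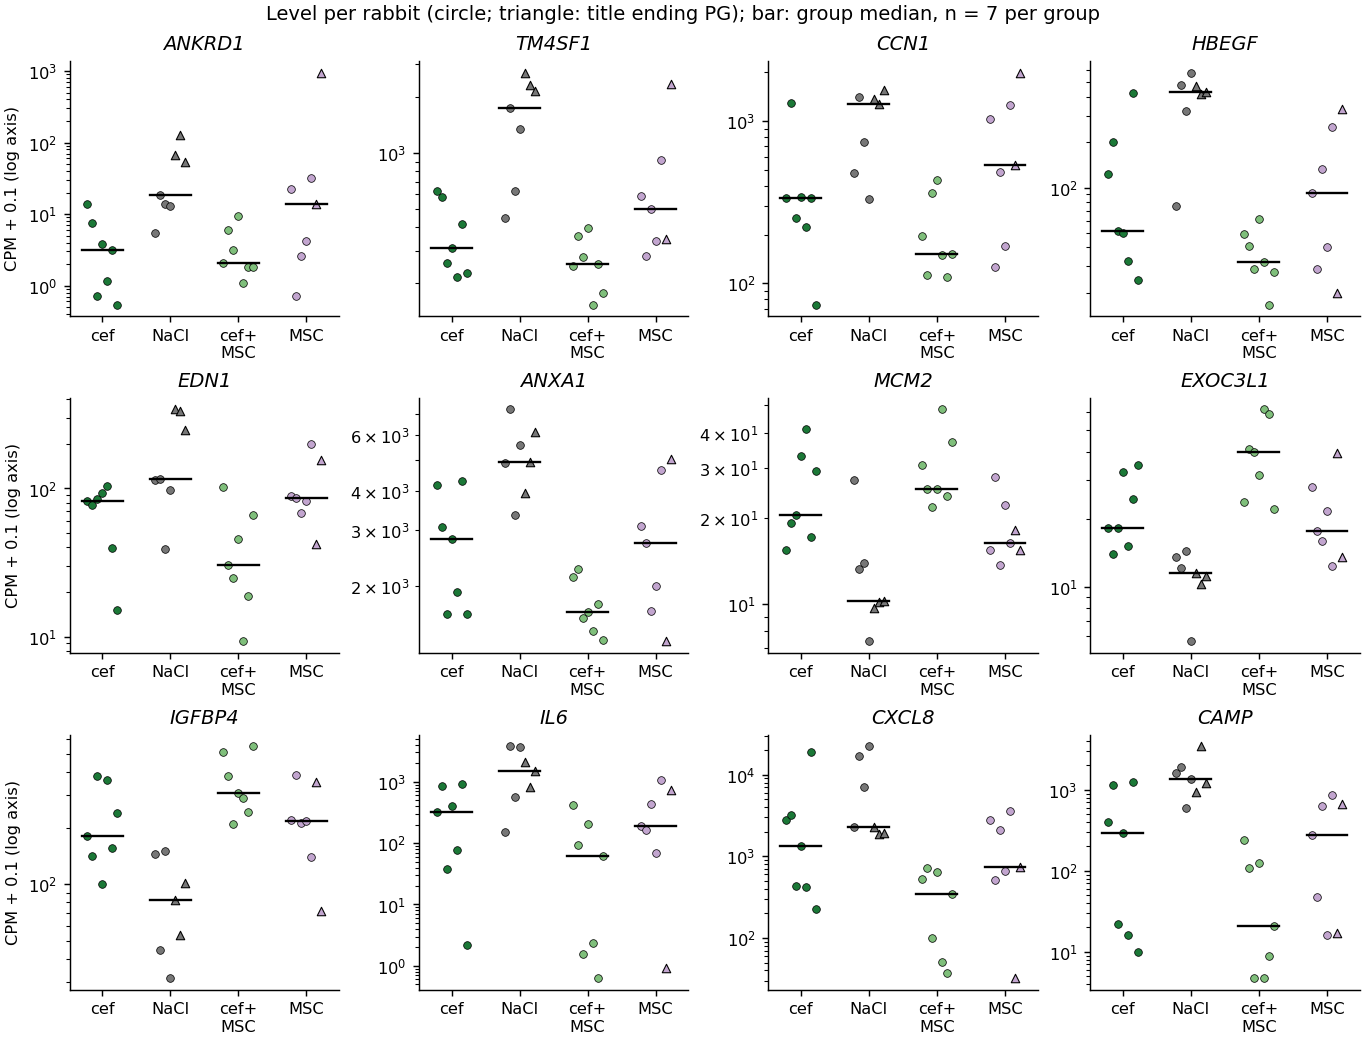
Levels of 12 genes in every rabbit. Each panel gives CPM + 0.1 on a log axis for ceftaroline, NaCl, ceftaroline+MSC and MSC lungs, with 1 point per rabbit (triangles mark PG titles) and a bar at the median of 7. ANKRD1 to ANXA1 were called lower, MCM2 to IGFBP4 called higher, and IL6, CXCL8 and CAMP were not called; the 14 lungs with ceftaroline and the 14 without it overlap in every panel.

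Several genes of DNA replication rose. MCM2, MCM3 and RRM1 belong to the cell cycle list; MCM proteins form the ring that unwinds DNA at the fork, and RRM1 is the large subunit of ribonucleotide reductase, which makes the building blocks of DNA. MCM2 ranged over 15.3 to 41.3 CPM (median 20.5) in ceftaroline lungs and 21.8 to 48.3 CPM (median 25.2) in ceftaroline+MSC lungs, against 7.29 to 27.3 CPM (median 10.1) in NaCl lungs and 13.6 to 27.8 CPM (median 16.3) in MSC lungs. MCM2 rose by 0.84 on the log2 scale (SE 0.18; limma, Benjamini-Hochberg adjusted p = 0.041), and all 14 ceftaroline lungs lay above the median of the lungs without it. For MCM3, the ceftaroline lungs held 29.7 to 77.6 CPM (median 37.4) and the ceftaroline+MSC lungs 40.1 to 85.3 CPM (median 52), against 21.4 to 41.6 CPM (median 27.7) in NaCl lungs and 25.9 to 53.9 CPM (median 36.1) in MSC lungs. MCM3 rose by 0.68 on the log2 scale (SE 0.15; limma, Benjamini-Hochberg adjusted p = 0.0417), likewise with 14 of 14 above, although the ranges overlapped. In the separate arms the log2 differences of MCM2 were 0.97 without MSC and 0.70 with MSC, and those of MCM3 0.72 without MSC and 0.64 with MSC.

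RRM1 ranged over 44.9 to 73 CPM (median 62.8) in ceftaroline lungs and 58.9 to 78.3 CPM (median 69.3) in ceftaroline+MSC lungs, against 32.8 to 52.6 CPM (median 37.6) in NaCl lungs and 43.5 to 78.8 CPM (median 52.4) in MSC lungs. RRM1 rose by 0.43 on the log2 scale (SE 0.10; limma, Benjamini-Hochberg adjusted p = 0.0475), with 13 of 14 ceftaroline lungs above the other median. TIMELESS, which protects the replication fork, rose by 0.89 on the log2 scale (SE 0.20; limma, Benjamini-Hochberg adjusted p = 0.0475), and its median was 46.2 CPM in ceftaroline and 67.7 CPM in ceftaroline+MSC lungs, against 15.7 CPM in NaCl and 34.9 CPM in MSC lungs. For RRM1 all 7 ceftaroline+MSC lungs lay above all 7 NaCl lungs, which lacked MSC as well as ceftaroline, and its other pairs of groups overlapped. The share of all genes separated in this way was not counted. Among libraries with no PG ending, the log2 differences were 0.74 for MCM2, 0.68 for MCM3, 0.44 for RRM1 and 0.60 for TIMELESS. DUT, which removes dUTP, rose by 0.65 on the log2 scale (SE 0.14; limma, Benjamini-Hochberg adjusted p = 0.041).

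Of the 30 tested members of the cell cycle and mitosis list, 28 had a higher value with ceftaroline and 3 were called higher, against 0.906% of all genes; with 1 library left out, 0 (for one, without NaCl replicate 2) to 5 (without NaCl replicate 1) were. The median log2 difference was 0.34, against 0.00 over all genes, with 0.27 without MSC and 0.38 with MSC. At an unadjusted p under 0.05, 12 were higher and 0 lower, against 11.8% of all genes higher and 12.4% lower. Members that were not called include the mitotic genes PLK1, with a log2 difference of 0.35, CCNB1 with 0.32 and AURKB with 0.14, and PCNA, the sliding clamp, with 0.05 (SE 0.09, limma adjusted p = 0.782). Without the PG libraries 29 of 30 members were higher, the median was 0.35, and 0 were called. A DNA replication list of 51 genes was added after the MCM genes had been seen. It holds genes already called, so its share of calls is a description only. Of its 27 tested members 25 were higher and 7 called higher, against 0.906% of all genes, with a median of 0.43. At an unadjusted p under 0.05, 18 members were higher, against 11.8% of all genes. With 1 library left out, 0 (for one, without NaCl replicate 2) to 11 members (without NaCl replicate 1) were called.

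Among the called falls were 10 genes that take part in building ribosomes. CCDC86 is a nucleolar protein, NLE1 takes part in assembly of the large ribosomal subunit, and NMD3 carries that subunit out of the nucleus. CCDC86 ranged over 18.9 to 56.3 CPM (median 29.3) in ceftaroline lungs and 15.6 to 32.1 CPM (median 24.8) in ceftaroline+MSC lungs, against 33.8 to 90.5 CPM (median 56.3) in NaCl lungs and 14.5 to 70.5 CPM (median 34.9) in MSC lungs. CCDC86 fell by 0.74 on the log2 scale (SE 0.19; limma, Benjamini-Hochberg adjusted p = 0.0475). For NLE1, the ceftaroline lungs held 7.18 to 12.9 CPM (median 12.1) and the ceftaroline+MSC lungs 8.04 to 17.2 CPM (median 11.3), against 16.3 to 29.1 CPM (median 19.2) in NaCl lungs and 8.61 to 28.2 CPM (median 13) in MSC lungs. NLE1 fell by 0.63 on the log2 scale (SE 0.16; limma, Benjamini-Hochberg adjusted p = 0.0475), with 14 of 14 ceftaroline lungs below the other median. NMD3 stood at 49.5 to 85.2 CPM (median 64.1) with ceftaroline and at 41.5 to 61.2 CPM (median 50.3) with ceftaroline+MSC, against 58.7 to 124 CPM (median 97.9) with NaCl and 52.5 to 114 CPM (median 68.7) with MSC. NMD3 fell by 0.49 on the log2 scale (SE 0.12; limma, Benjamini-Hochberg adjusted p = 0.0475). In each of these genes the MSC lungs reached down into the range of the ceftaroline lungs.

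RIOK2, a kinase of the small subunit, fell by 0.38 on the log2 scale, and PUS7, a pseudouridine synthase, fell by 0.43 on the log2 scale (limma adjusted p = 0.0475 for each). POLR1E, a subunit of RNA polymerase I, fell by 0.35 on the log2 scale (limma adjusted p = 0.0489). The abundant nucleolar genes NCL and NPM1 differed by -0.47 (SE 0.14, limma adjusted p = 0.0628) and -0.47 (SE 0.14, limma adjusted p = 0.061) on the log2 scale and were not called. A list of 103 ribosome biogenesis genes was likewise drawn up after the called genes had been seen. It holds genes already called, so its shares are a description only. Of 65 tested members, 63 had a lower value with ceftaroline, 10 were called lower, against 0.775% of all genes, and the median was -0.40. At an unadjusted p under 0.05, 51 were lower, against 12.4% of all genes. With 1 library left out, 0 (for one, without NaCl replicate 2) to 37 members (without MSC replicate 6) were called lower. It was -0.45 without MSC and -0.34 with MSC. Among libraries with no PG ending, 4 of 65 had a higher value, the median was -0.28, and 0 were called. Without any scaling between libraries the median was -0.21, against 0.18 over all genes. Ribosomal protein genes themselves (21 tested) had 0 calls and a median of -0.11, which turned to 0.08 without scaling.

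Other falls came in genes of varied function. ANXA1 encodes annexin A1, a brake on neutrophil entry. ANXA1 ranged over 1629 to 4292 CPM (median 2813) in ceftaroline lungs and 1343 to 2266 CPM (median 1659) in ceftaroline+MSC lungs, against 3361 to 7249 CPM (median 4951) in NaCl lungs and 1336 to 5057 CPM (median 2729) in MSC lungs. It fell by 0.79 on the log2 scale (SE 0.20; limma, Benjamini-Hochberg adjusted p = 0.0475), with 14 of 14 ceftaroline lungs below the other median. GCLC, the catalytic subunit of the first enzyme of glutathione synthesis, fell by 1.07 on the log2 scale (SE 0.28; limma, Benjamini-Hochberg adjusted p = 0.0475), with medians of 10.1 and 7.91 CPM in ceftaroline and ceftaroline+MSC lungs, against 28.5 CPM in NaCl and 11.3 CPM in MSC lungs. CCL14, a chemokine, fell by 1.40 on the log2 scale (SE 0.34; limma, Benjamini-Hochberg adjusted p = 0.0475), and ALDH1A2, an enzyme of retinoic acid synthesis, fell by 0.97 on the log2 scale (SE 0.23; limma, Benjamini-Hochberg adjusted p = 0.0475). GPR141, NR2E1, HACD1, RASSF1, ARF6 and QPCT made up the rest of the 15 largest falls, with log2 differences between -1.36 and -0.75 and 12 or 13 of 14 ceftaroline lungs below the other median. Among libraries with no PG ending, the log2 differences were -0.76 for ANXA1, -0.70 for GCLC and -0.77 for ALDH1A2. They were -1.17 for GPR141, -0.46 for HACD1, -0.40 for RASSF1, -0.60 for ARF6 and -0.67 for QPCT. Those of CCL14 and NR2E1 were larger in size there, at -1.60 and -1.55. RASSF1 had a median of 174 CPM in the lungs with the PG ending and 74.5 CPM in the other lungs without ceftaroline.

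Of the 22 tested members of the resolution and repair list, 15 had a lower value, 2 were called lower (ANXA1 and HBEGF), against 0.775% of all genes, and the median was -0.45. PTGS2, the inducible cyclooxygenase, AREG, an EGF receptor ligand, and TNFAIP6, an anti-inflammatory hyaluronan-binding protein, differed by -1.90, -1.56 and -1.63 on the log2 scale and were not called (limma adjusted p = 0.0609, 0.0634 and 0.0861). FGF10 and HGF, growth factors of repair, had log2 differences of 0.84 and 0.44 and were not called.

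Under the same limit to genes that have a symbol and average 5 CPM or more, the largest rises were in LXN, IGFBP4 and HHAT. HHAT reached that average only through the ceftaroline lungs (mean 7.77 CPM, against 3.70 CPM without ceftaroline). So did FUK (9.06 against 4.82 CPM) and DDX11 (7.51 against 3.95 CPM). LXN ranged over 31.3 to 131 CPM (median 55.9) in ceftaroline lungs and 44.7 to 194 CPM (median 99.8) in ceftaroline+MSC lungs, against 12.5 to 58.2 CPM (median 22) in NaCl lungs and 16.6 to 88.8 CPM (median 67.9) in MSC lungs. LXN, an inhibitor of carboxypeptidases, rose by 1.13 on the log2 scale (SE 0.28; limma, Benjamini-Hochberg adjusted p = 0.0475). For IGFBP4, the ceftaroline lungs held 100.3 to 382 CPM (median 182) and the ceftaroline+MSC lungs 210.0 to 551 CPM (median 309), against 31.4 to 152 CPM (median 82.4) in NaCl lungs and 71.5 to 384 CPM (median 219.8) in MSC lungs. IGFBP4, a binding protein of insulin-like growth factors, rose by 1.08 on the log2 scale (SE 0.27; limma, Benjamini-Hochberg adjusted p = 0.0475). For both genes the 7 NaCl lungs were the lowest group by median. For IGFBP4 all of them lay below all 7 ceftaroline+MSC lungs, which received MSC as well as ceftaroline. The share of all genes separated in this way was not counted. For both LXN and IGFBP4, 12 of 14 ceftaroline lungs lay above the median of the lungs without it. Among libraries with no PG ending the log2 differences were 0.84 for LXN and 1.02 for IGFBP4. LXN had a median of 20.0 CPM in the lungs with the PG ending and 58.2 CPM in the other lungs without ceftaroline.

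EXOC3L1 stood at 13.9 to 34.7 CPM (median 18.2) with ceftaroline and at 22 to 61.6 CPM (median 39.7) with ceftaroline+MSC, against 5.61 to 14.3 CPM (median 11.4) with NaCl and 12.2 to 39.5 CPM (median 17.7) with MSC. EXOC3L1, related to a subunit of the exocyst complex, rose by 0.94 on the log2 scale (SE 0.19; limma, Benjamini-Hochberg adjusted p = 0.041), with all 14 ceftaroline lungs above the other median. ACSL5, which activates long-chain fatty acids, rose by 0.77 on the log2 scale (SE 0.20; limma, Benjamini-Hochberg adjusted p = 0.0475), with medians of 145 CPM and 212 CPM in ceftaroline and ceftaroline+MSC lungs, against 99.4 CPM in NaCl and 117 CPM in MSC lungs. HHAT, FUK, DDX11, ZMYM3, ATXN7L1, MUTYH, RWDD3, GPAM and HSD17B8 rose by 0.76 to 1.03 on the log2 scale, and 11 to 13 of 14 ceftaroline lungs lay above the other median. DDX11 is a DNA helicase and MUTYH a DNA repair glycosylase. Among libraries with no PG ending, the log2 differences were 1.03 for EXOC3L1 and 0.71 for ACSL5. For the genes from HHAT to HSD17B8 they ran from 0.51 (MUTYH) to 1.08 (HHAT). In the fatty acid oxidation list 15 of 20 tested members had a higher value, 1 was called higher (ACSL5), against 0.906% of all genes, and the median was 0.28. CPT2, which frees acyl-carnitines in the mitochondrion, had a log2 difference of 0.43 (SE 0.15, limma adjusted p = 0.0894).

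Cytokines and neutrophil genes had large differences that were not called. IL6 ranged over 2.12 to 911 CPM (median 317) in ceftaroline lungs and 0.535 to 414 CPM (median 60.9) in ceftaroline+MSC lungs, against 153 to 3807 CPM (median 1473) in NaCl lungs and 0.838 to 1070.5 CPM (median 193) in MSC lungs. The log2 difference of IL6 was -2.95 (SE 1.08, limma adjusted p = 0.102), with a 95% interval of -5.17 to -0.74. For CXCL8, the ceftaroline lungs held 226 to 19126 CPM (median 1346) and the ceftaroline+MSC lungs 37 to 711 CPM (median 342), against 1882 to 22403 CPM (median 2287) in NaCl lungs and 32.3 to 3594 CPM (median 738) in MSC lungs. For CXCL8, the neutrophil chemokine IL-8, it was -1.85 (SE 0.70, limma adjusted p = 0.111), with an interval of -3.28 to -0.41. For IL6 12 and for CXCL8 11 of 14 ceftaroline lungs lay below the other median. The 14 lungs with and the 14 without ceftaroline overlapped for both. For CXCL8 all 7 ceftaroline+MSC lungs lay below all 7 NaCl lungs, but those groups differ in MSC too. The share of all genes separated in this way was not counted. IL1B, TNF, IL10 and CSF3 had log2 differences of -1.14, -0.05, -0.85 and -1.69, and that of TNF had an interval of -1.47 to 1.37. Among libraries with no PG ending these were -2.02, -1.18, -1.60 and -3.19, with -3.33 for IL6 and -2.74 for CXCL8, and none of the 6 was called (lowest limma adjusted p = 0.0618, CXCL8). A p that misses the threshold does not show that a level was the same.

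Of 33 tested cytokine and chemokine genes, 17 had a lower value and 16 a higher one, 0 were called by limma, and the median was -0.05. At an unadjusted p under 0.05, 4 were higher and 2 lower, against 11.8% of all genes higher and 12.4% lower. The median was 0.17 without MSC and -0.44 with MSC. Without scaling between libraries it was 0.14, against 0.18 over all genes. Among libraries with no PG ending it was -1.18, with 7 of 33 members higher. There, 16 members were lower at an unadjusted p under 0.05, against 1187 of 9828 genes. The chemokine gene CCL14, which was called lower, is not in that list. Higher values, none of them called, came in CXCL9 (1.86) and IL12A (0.97), the first a chemokine that interferon-gamma induces.

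CAMP, the precursor of the cathelicidin antimicrobial peptide of neutrophil granules, varied widely between rabbits. CAMP ranged over 9.97 to 1239.8 CPM (median 295) in ceftaroline lungs and 4.66 to 241 CPM (median 20.6) in ceftaroline+MSC lungs, against 592 to 3469.7 CPM (median 1343) in NaCl lungs and 15.9 to 867 CPM (median 281) in MSC lungs. Its log2 difference was -2.90 (SE 0.82, limma adjusted p = 0.06), with an interval of -4.58 to -1.21. S100A8, a calcium-binding protein of neutrophils, differed by -1.33 (SE 0.57, limma adjusted p = 0.152), and LTF, lactoferrin, by -2.34 (SE 0.76, limma adjusted p = 0.0762). Of 13 tested neutrophil markers, 11 had a lower value with ceftaroline, 0 were called by limma, and the median was -0.96. At an unadjusted p under 0.05, 7 were lower and 1 higher, against 12.4% of all genes lower and 11.8% higher. The median was -0.76 without MSC and -1.22 with MSC, and -1.38 among libraries with no PG ending. Summed over the list, levels were 4867 to 141735 CPM (median 28120.5) in ceftaroline lungs and 1752 to 48836 CPM (median 11978) in ceftaroline+MSC lungs, against 15034 to 141483 CPM (median 76283) in NaCl lungs and 2989 to 65369.6 CPM (median 27866) in MSC lungs. Of the 24 genes of that list in the files, 9 (MMP9 and CSF3R among them) were listed at 0 in all 28 libraries. The part of neutrophil content in the other differences was not tested.

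Genes of antigen presentation had 0 calls. Over all genes, 11.8% were higher and 12.4% lower at an unadjusted p under 0.05. CIITA, the master regulator of MHC class II genes, had 32.2 to 147 CPM (median 80.3) in ceftaroline and 61.4 to 134 CPM (median 108) in ceftaroline+MSC lungs, against 16 to 71.4 CPM (median 26.1) in NaCl and 42.2 to 172 CPM (median 56) in MSC lungs. Its log2 difference of 0.91 (SE 0.26, limma adjusted p = 0.0609) was not called, though 13 of 14 ceftaroline lungs lay above the other median. Among libraries with no PG ending it was 0.56 (limma adjusted p = 0.189). CIITA had a median of 25.1 CPM in the lungs with the PG ending and 56.0 CPM in the other lungs without ceftaroline. Of 10 tested class II genes, 9 had a higher value, 0 were called (limma; 6 higher at an unadjusted p under 0.05), and the median was 0.46. CD74, the invariant chain, differed by 0.14 (SE 0.19, limma adjusted p = 0.683). Without the PG libraries the median was 0.18 and 7 of 10 were higher. Of 11 MHC class I genes 9 had a higher value and 0 were called (0 at an unadjusted p under 0.05), with a median of 0.33 that turned to -0.21, with 1 of 11 higher, without the PG libraries. Of 27 interferon-induced genes 22 had a higher value and 0 were called (1 at an unadjusted p under 0.05), with a median of 0.26 that turned to -0.45, with 2 of 27 higher, without the PG libraries.

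Clotting, heat shock and complement genes had 0 calls. Their counts at an unadjusted p under 0.05 stand beside 11.8% of all genes higher and 12.4% lower. Of 14 coagulation and fibrinolysis genes, 11 had a lower value, 0 were called (limma; 7 lower at an unadjusted p under 0.05), and the median was -0.40, and -0.24 without the PG libraries. THBS1, thrombospondin, and F3, tissue factor, differed by -1.61 (SE 0.45, limma adjusted p = 0.0569) and -1.18 (SE 0.34, limma adjusted p = 0.0609). Of 13 heat shock genes 12 had a lower value and 0 were called (6 at an unadjusted p under 0.05), with a median of -0.36. That median was -0.42 without MSC and -0.10 with MSC. Without the PG libraries it was -0.30, with 1 lower at an unadjusted p under 0.05. HMOX1 stood at 293 to 1441 CPM (median 829.7) with ceftaroline and at 183 to 823 CPM (median 292) with ceftaroline+MSC, against 891 to 5063 CPM (median 1746) with NaCl and 177 to 1523 CPM (median 595) with MSC. HMOX1, which breaks down haem, differed by -1.17 (SE 0.32, limma adjusted p = 0.0504), just outside the threshold. All 7 ceftaroline+MSC lungs lay below all 7 NaCl lungs, which lacked MSC as well as ceftaroline. The share of all genes separated in this way was not counted. The antioxidant and haem list that holds HMOX1 had 7 of 17 tested members higher and a median of -0.09. Of its members, 1 was called lower (GCLC), against 0.775% of all genes. Without scaling between libraries its median was 0.09, against 0.18 over all genes. Of 13 complement genes 10 had a higher value and 0 were called (4 at an unadjusted p under 0.05), with a median of 0.64, or 0.28 without the PG libraries.

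Markers of other cell types were also read as lists, beside 11.8% of all genes higher and 12.4% lower at an unadjusted p under 0.05. Of 19 endothelial markers 10 had a higher value, 0 were called (limma; 1 higher and 4 lower at an unadjusted p under 0.05), and the median was 0.01. PECAM1, a junction protein of endothelium, differed by -0.68 (SE 0.20, limma adjusted p = 0.0628). Summed over the list, levels were 2276 to 7869 CPM (median 3694) in ceftaroline lungs and 2556 to 3463 CPM (median 2996) in ceftaroline+MSC lungs, against 3743 to 6671 CPM (median 5247) in NaCl lungs and 2500.0 to 5309 CPM (median 3607) in MSC lungs, and 9 of its 29 genes in the files, NOS3 and CLDN5 among them, were listed at 0 in all libraries. In this sum all 7 ceftaroline+MSC lungs lay below all 7 NaCl lungs, as they did for TM4SF1, with MSC differing too. The other pairs of groups overlapped, and the share of lists or genes separated in this way was not counted. The part of endothelial content in the fall of TM4SF1 was not tested. Of 11 alveolar type I markers 6 had a higher value, 1 was called lower (ANXA1), against 0.775% of all genes, and the median was 0.00. Without the PG libraries that median was 0.53, with 9 of 11 higher. Smooth muscle and pericyte markers had 12 of 16 lower, 0 called and a median of -0.25. Without the PG libraries their median turned to 0.31, with 13 of 16 higher and 1 called higher. Monocyte and macrophage markers had 14 of 21 higher with a median of 0.23, T and NK cell markers 13 of 19 higher with 0.09, and fibroblast and matrix genes 15 of 28 higher with 0.08, with 0 called in each (3, 1 and 2 at an unadjusted p under 0.05). Among libraries with no PG ending, the medians were 0.21 for endothelial markers (6 higher and 2 lower at an unadjusted p under 0.05), 0.06 for monocyte and macrophage markers, -0.09 for T and NK cell markers, and 0.53 for fibroblast and matrix genes, of which 24 of 28 were higher and 9 had an unadjusted p under 0.05, with 0 called in each.

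Energy genes were read as lists too, beside the same shares of all genes (11.8% higher and 12.4% lower at an unadjusted p under 0.05). Of 27 nuclear genes of oxidative phosphorylation, 24 had a higher value, 0 were called (limma; 6 at an unadjusted p under 0.05), and the median was 0.12. Without scaling between libraries it was 0.30, against 0.18 over all genes, and among libraries with no PG ending it was 0.03, with 16 of 27 higher. Of 15 glycolysis genes 14 had a lower value, 0 were called (1 at an unadjusted p under 0.05), and the median was -0.31. Among libraries with no PG ending that median was -0.83, with 0 of 15 higher, 10 lower at an unadjusted p under 0.05 and 0 called. PINK1, a kinase of mitophagy, and HIF1A, the hypoxia factor, differed by 0.26 (SE 0.21, limma adjusted p = 0.467) and -0.56 (SE 0.29, limma adjusted p = 0.24). The alveolar genes SLC34A2 and SFTPB differed by 0.97 (SE 0.79, limma adjusted p = 0.471) and 0.32 (SE 0.46, limma adjusted p = 0.706), with intervals of -0.65 to 2.58 and -0.62 to 1.26. Without the PG libraries the differences were 1.43 and 0.93, and neither was called. SFTPB had a median of 4655 CPM in the 5 lungs with the PG ending and 2211 CPM in the 9 other lungs without ceftaroline.

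**Figure D4:**
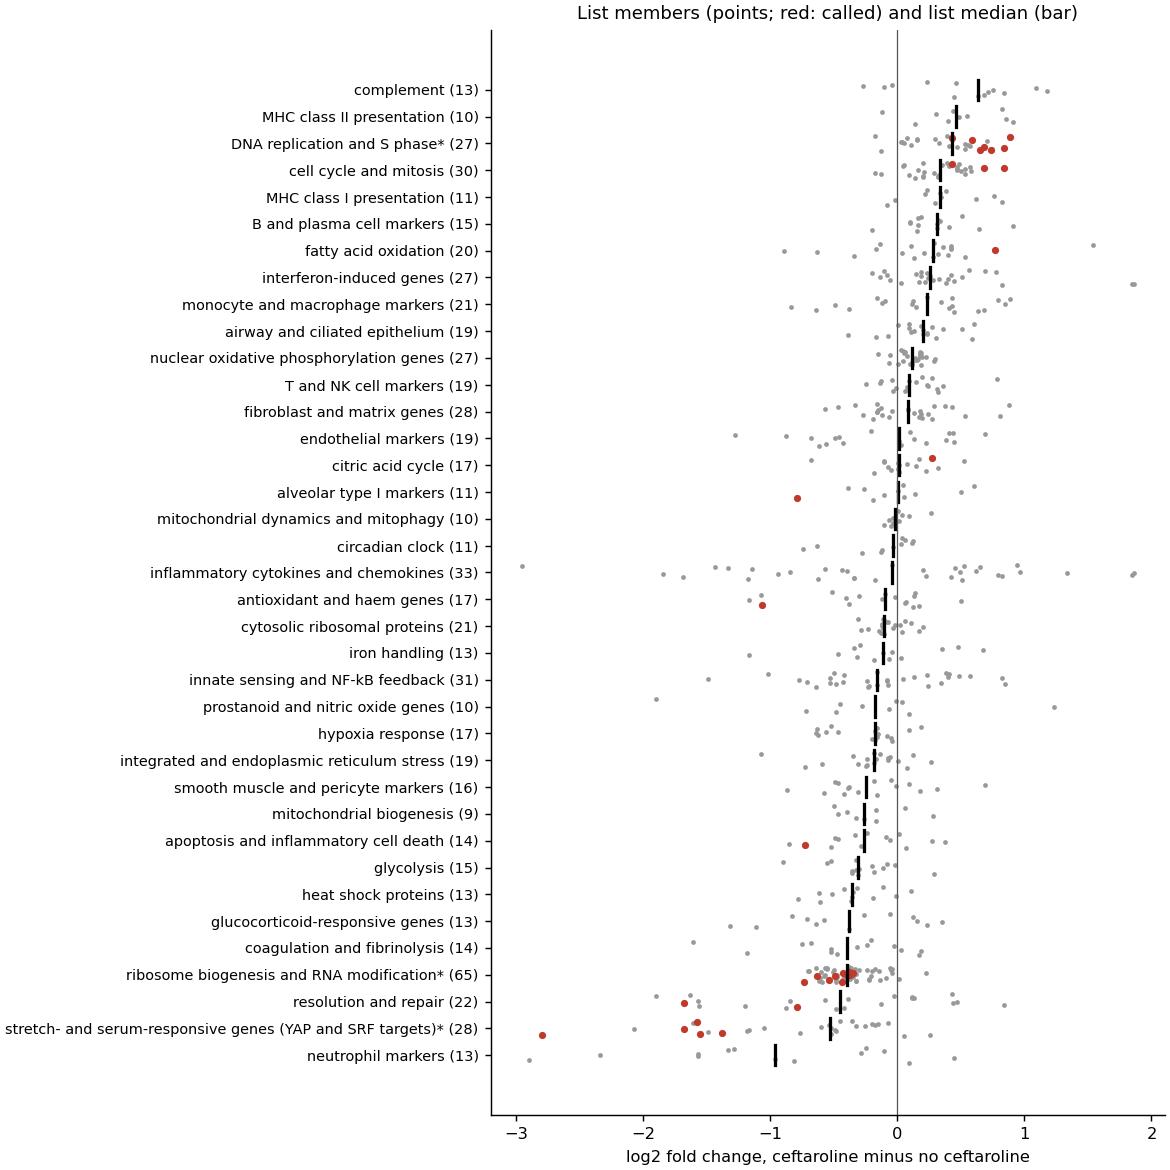
Log2 difference with ceftaroline for the members of each list with at least 9 tested genes. Each row is a list, with its number of tested members and a star where it was drawn up after the called genes had been seen; points are genes (red where called), and the bar is the list median. Medians run from -0.96 for neutrophil markers to 0.64 for complement, and called genes lie in few lists.

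The arms were then read as separate contrasts, with no library in both. They were not independent, since 1 model of all 28 libraries gave them 1 scaling and 1 estimate of the spread. In both arms the PG titles were only among the lungs without ceftaroline. Without MSC, ceftaroline against NaCl, 26 genes were called (0.262%; 21 higher and 5 lower), and 2028 had an unadjusted p under 0.05. With 1 library left out, the number of called genes ran from 0 (without ceftaroline replicate 4, 5 or 7) to 722 (without NaCl replicate 1). With MSC, ceftaroline+MSC against MSC, 2 genes were called (0.0201%), and 832 had an unadjusted p under 0.05; with 1 library left out the called genes numbered 1 to 10 (without ceftaroline+MSC replicate 7). Of the 26, 21 (80.8%) had the same sign with MSC, against 66.5% of all genes, and 4 (15.4%) had an unadjusted p under 0.05 there with the same sign, against 8.37% of all genes at an unadjusted p under 0.05 in either direction. Over the 9938 genes, which are no replicates of each other, the arms' effects had a Spearman correlation of 0.43, given as a description. That a gene passed in one arm and not in the other does not show that the arms differ.

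Among the 26, GLOD4 ranged over 133 to 152 CPM (median 146) in ceftaroline lungs and 118 to 165 CPM (median 146) in ceftaroline+MSC lungs, against 86.5 to 116 CPM (median 93.8) in NaCl lungs and 118 to 166 CPM (median 133) in MSC lungs. Its log2 difference was 0.52 without MSC (SE 0.10, limma adjusted p = 0.0252) and 0.07 with MSC. The 7 ceftaroline lungs lay above all 7 NaCl lungs. GLOD4 was picked by its call in this contrast, so that separation is a description only, and the share over all genes was not counted. For PRKDC, the ceftaroline lungs held 26.1 to 37 CPM (median 31.6) and the ceftaroline+MSC lungs 27.4 to 39.8 CPM (median 32.9), against 14.4 to 27.1 CPM (median 16.6) in NaCl lungs and 23.4 to 34.6 CPM (median 28.7) in MSC lungs. PRKDC, the catalytic subunit of the DNA-dependent protein kinase, had log2 differences of 0.77 without MSC (SE 0.14, limma adjusted p = 0.0252) and 0.16 with MSC. Over both arms it rose by 0.47 on the log2 scale (limma adjusted p = 0.0475).

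The interaction of ceftaroline with MSC called 1 gene (0.0101%), SEC62, a part of the machinery that carries proteins into the endoplasmic reticulum, and 533 genes had an unadjusted p under 0.05. The number of called genes was 0 without scaling between libraries. With 1 library left out it ran from 0 (without MSC replicate 1, 4 or 5, ceftaroline replicate 1, 3, 4 or 5, or ceftaroline+MSC replicate 3, 5 or 6) to 11 (without NaCl replicate 5). SEC62 ranged over 34.3 to 45.7 CPM (median 37) in ceftaroline lungs and 65.4 to 88 CPM (median 70.6) in ceftaroline+MSC lungs, against 38.1 to 70.6 CPM (median 40.6) in NaCl lungs and 29.4 to 53 CPM (median 36.3) in MSC lungs. The ceftaroline+MSC lungs lay above all MSC lungs. SEC62 was picked by its call, so that separation is a description only, and the share over all genes was not counted. The log2 difference was 0.95 with MSC (SE 0.15, limma adjusted p = 0.00627) and -0.30 without it (SE 0.15, adjusted p = 0.255). The difference between the arms was 1.25 (SE 0.21, adjusted p = 0.0213). The other gene called with MSC has no symbol in the files.

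**Figure D5:**
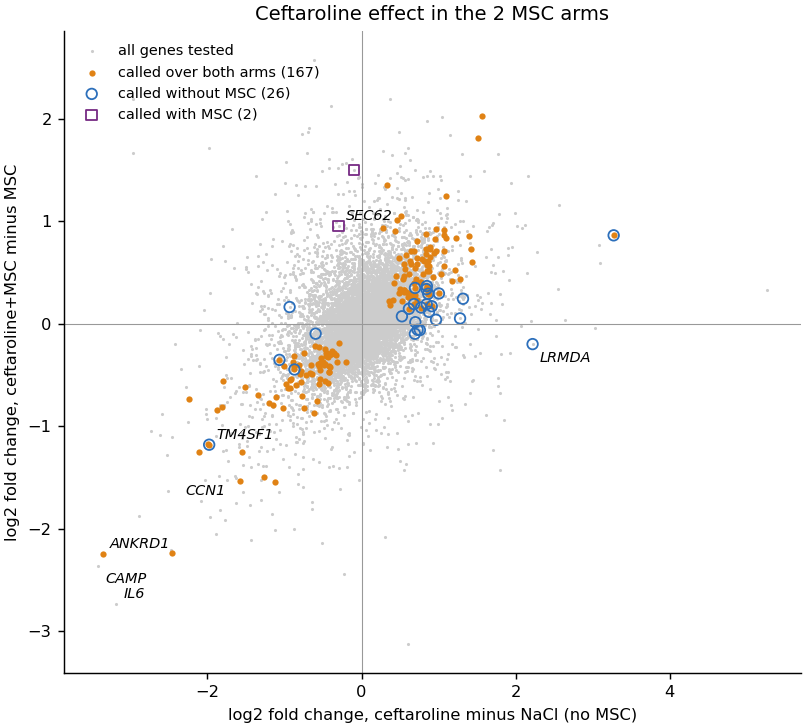
Ceftaroline effect in each arm. The horizontal axis is the log2 fold change of ceftaroline over NaCl lungs, and the vertical axis that of ceftaroline+MSC over MSC lungs (7 rabbits per group). Grey points are all 9938 genes, orange points the 167 called over both arms, blue circles the 26 called without MSC, and purple squares the 2 called with MSC; SEC62 lies above 0 on the vertical axis and below 0 on the horizontal one.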

How the data were processed

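Lung messenger RNA of 28 rabbits was read as 75 bp single reads from stranded libraries, with bcl2fastq2 2.18.12 for demultiplexing and Cutadapt 1.15 for adapter trimming, per the labels' protocols. TopHat2 2.1.1, featureCounts 1.5.2 and DESeq2 1.24.0 are named in the submitters' processing notes, with no role or order, and the genome build is not given in the sources used here. For each gene and library the authors deposited a signal that is the read count divided by a size factor, per the file headers. Dividing each library by its lowest nonzero value gave whole reads for 100% of values within a relative tolerance of 1e-06, and the 14 libraries present in 2 tables gave equal reads. The authors' own fold changes were not used.

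Reads of the 28 libraries were scaled together (TMM, edgeR 4.0.16), genes with at least 1 CPM in at least 7 libraries were kept, and log2 CPM (prior count 2) was tested with limma 3.58.1 (R 4.3.3, trend) on ceftaroline and MSC, with Benjamini-Hochberg adjustment over all 9938 genes. Separate arms and the interaction came from a model of the 4 group means. DESeq2 1.42.0 and edgeR served as alternatives, and the scripts were tested on simulated data. Replicates are separate rabbits, numbered in accession order. The rule named, in each direction, the 15 called genes of largest change that carry a symbol and average 5 CPM or more, the 3 lowest p of each list with at least 3 called members (the cell cycle list, leaving aside 3 lists added after the calls were seen), and a panel of 16 genes; other genes were chosen after their values were seen. The members and lists were chosen with earlier results of these data known.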

Additional observations from a re-analysis of the deposited data

Results flagged for a closer look

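In 196 sets of 7 values (gene levels on the log2 scale, and reads), 8 had a highest or lowest rabbit far from the rest, where chance gives about 1 in 20. TNF was low in ceftaroline replicate 7, at 5.18 CPM with the next at 37.0 CPM. In NaCl lungs, EXOC3L1 was low in replicate 4 (5.61 CPM, next 10.1 CPM), HBEGF low in replicate 1 (74.8 CPM, next 320.1 CPM), MCM3 high in replicate 1 (41.6 CPM, next 28.1 CPM) and S100A8 low in replicate 5 (5514 CPM, next 19296 CPM). NaCl replicate 6 had the most reads of its group, 14948358, with 10729707 next. MSC replicate 6 was low for CXCL8 (32.3 CPM, next 508 CPM) and for IL6 (0.838 CPM, next 69.1 CPM). SEC62 differed between the arms by 1.25 on the log2 scale in the interaction test.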

How the results depend on the processing

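The 167 calls over both arms became 0 at an adjusted p under 0.01 and 1045 under 0.1, 265 with edgeR, 980 with DESeq2, 283 with voom and sample weights, 628 without scaling, 0 without the filter on low counts (2660 at an unadjusted p under 0.05), 0 without the MSC term (2152) and 0 without the library with the S00 mark, which is NaCl replicate 2 (2300). They became 11 without PG titles, 3 with the ending as covariate and, in an alternative chosen after seeing the data, 2 without the 2 deepest libraries (ceftaroline replicates 4 and 5). Leaving out 1 library gave 0 to 786 calls. Without MSC, the 26 calls became 0 under 0.01, 518 under 0.1, 618 with DESeq2, 83 with voom, 79 with DESeq2 size factors, 671 without scaling, 103 with a filter in 14 libraries, 306 without PG titles, 77 with the covariate, 9 without the S00 library, 0 without the 2 deepest, and 0 to 722 with 1 library left out. With MSC, the 2 calls became 1 under 0.01, 33 with DESeq2, 12 with voom, 1 with size factors, 19 without scaling, 1 under either filter change, 1 without the S00 library, and 1 to 10 with 1 library left out. The interaction's 1 call became 0 under 0.01, 2 under 0.1, 39 with DESeq2, 9 with voom, 0 without scaling, 46 without PG titles, 18 with the covariate, 5 without the S00 library, 0 without the 2 deepest, and 0 to 11 with 1 library left out. A replicate block on the title number, which no source says pairs rabbits, gave 0 calls over both arms (1520 at an unadjusted p under 0.05), 24 without MSC, 5 with MSC and 26 for the interaction; 12 of 28 same-number pairs correlated over 0.1. The log2 difference of CD74 turned to -0.15 without PG titles, -0.18 with the covariate and -0.16 with the replicate block. That of TNF, -0.05, was -1.18 without PG titles and -1.21 with the covariate, turned to 0.14 without scaling and 0.19 without the S00 library, and ranged from -0.29 to 0.24 with 1 library left out. The 32 called genes of the naming rule kept their direction at all of these settings. The cause of these shifts was not tested, and leaving out scaling moved the median of all genes to 0.18.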
